A study of Caenorhabditis briggsae with 12 samples.

Results

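The genes described here were lowest in all 3 day 9 libraries of an ageing series in Caenorhabditis briggsae, a nematode whose hermaphrodites fertilise their own eggs. Members were chosen by their measured level in CPM, which is 1000000 times the count divided by the library total. A gene was a member if its lowest level in the 9 libraries of days 1, 3 and 6 was at least 5 CPM and at least 1.5 times its highest level in the 3 day 9 libraries, with a mean over the 12 libraries under 1000 CPM. This rule found 16 of the 23169 genes in the table, or 0.0691%. Of the 7481 genes that met its limits on the level in days 1, 3 and 6 and on the mean, the 16 were 0.214%. The mirrored rule, with day 9 highest by the same margin and the limit of 5 CPM set on the day 9 libraries, found 56 genes. The counts of 16 and 56 thus come from unlike pools of genes. A further 5 genes passed the gap but not the upper limit, with means of 5696 to 24831 CPM and gaps of 1.51 to 2.64, and are not members.

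All libraries came from whole hermaphrodites of AF16, the wild-type laboratory strain, fed on E. coli OP50 and given no treatment that the labels name. The animals were sampled at days 1, 3, 6 and 9 of adulthood, with 3 libraries for each day, and the number of animals in a library is not given in the sources used here. Populations were synchronised by bleaching, and adults were separated from larvae by repeated settling and by picking. Library totals ran from 14276540 counts in replicate 1 of day 9 to 33732477 in replicate 1 of day 1.

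In self-fertile Caenorhabditis, the germ line makes a limited stock of sperm in the larva and then switches to oocytes, and egg laying occupies the first part of adult life. Animals live on after it, and transcripts of the gut, muscle, epidermis, nervous system and gonad are all present in RNA from a whole animal, together with those of any embryos still inside it. Levels in CPM are shares of the library total. A lower level of a transcript can come, among other causes, from fewer cells of a type or from less RNA per cell. These cannot be told apart here. The identifiers of the counts were paired with no gene names, and 0 of them matched the 22727 entries of the RefSeq gene table of assembly CB4, so that no role can be given to any member. The labelled tissue was not checked against marker genes for the same reason.

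The day 9 libraries were not alike. Over all genes, counts in replicate 1 differed from those in replicates 2 and 3 by a chi-square per degree of freedom of 239 and 288, against 4.23 to 32.0 for the other pairs of libraries from the same day. Without replicate 1 of day 9 the rule found 36 genes, and it found 254 where replicate 1 stood alone for day 9. Fewer day 9 libraries make the rule easier to meet, so that both sets hold the 16 members by construction.

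Because the rule chose the members for their day 9 values, these are described without a test. The median member stood at 29.5%, 34.3% and 34.9% of its day 6 mean in replicates 1, 2 and 3 of day 9. Among the 7481 genes that met the level limits, the same medians were 104%, 87.6% and 82.3%. Over the 3 libraries together, the day 9 mean of a member ran from 3.78% to 57.9% of its day 6 mean, with a median of 32.8%. In all, the 16 genes took between 0.222% and 0.231% of all counts at day 1. This share lay between 0.240% and 0.262% at day 3, between 0.247% and 0.286% at day 6, and at 0.0683%, 0.0739% and 0.0794% in replicates 1, 2 and 3 of day 9. A pair of them, WBGene00031247 and WBGene00031248, took 0.116% to 0.186% of the counts in the earlier libraries and 0.0355% to 0.0487% at day 9. The other 14 took 0.0872% to 0.109% before day 9 and 0.0306% to 0.0327% at day 9.

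**Figure D1:**
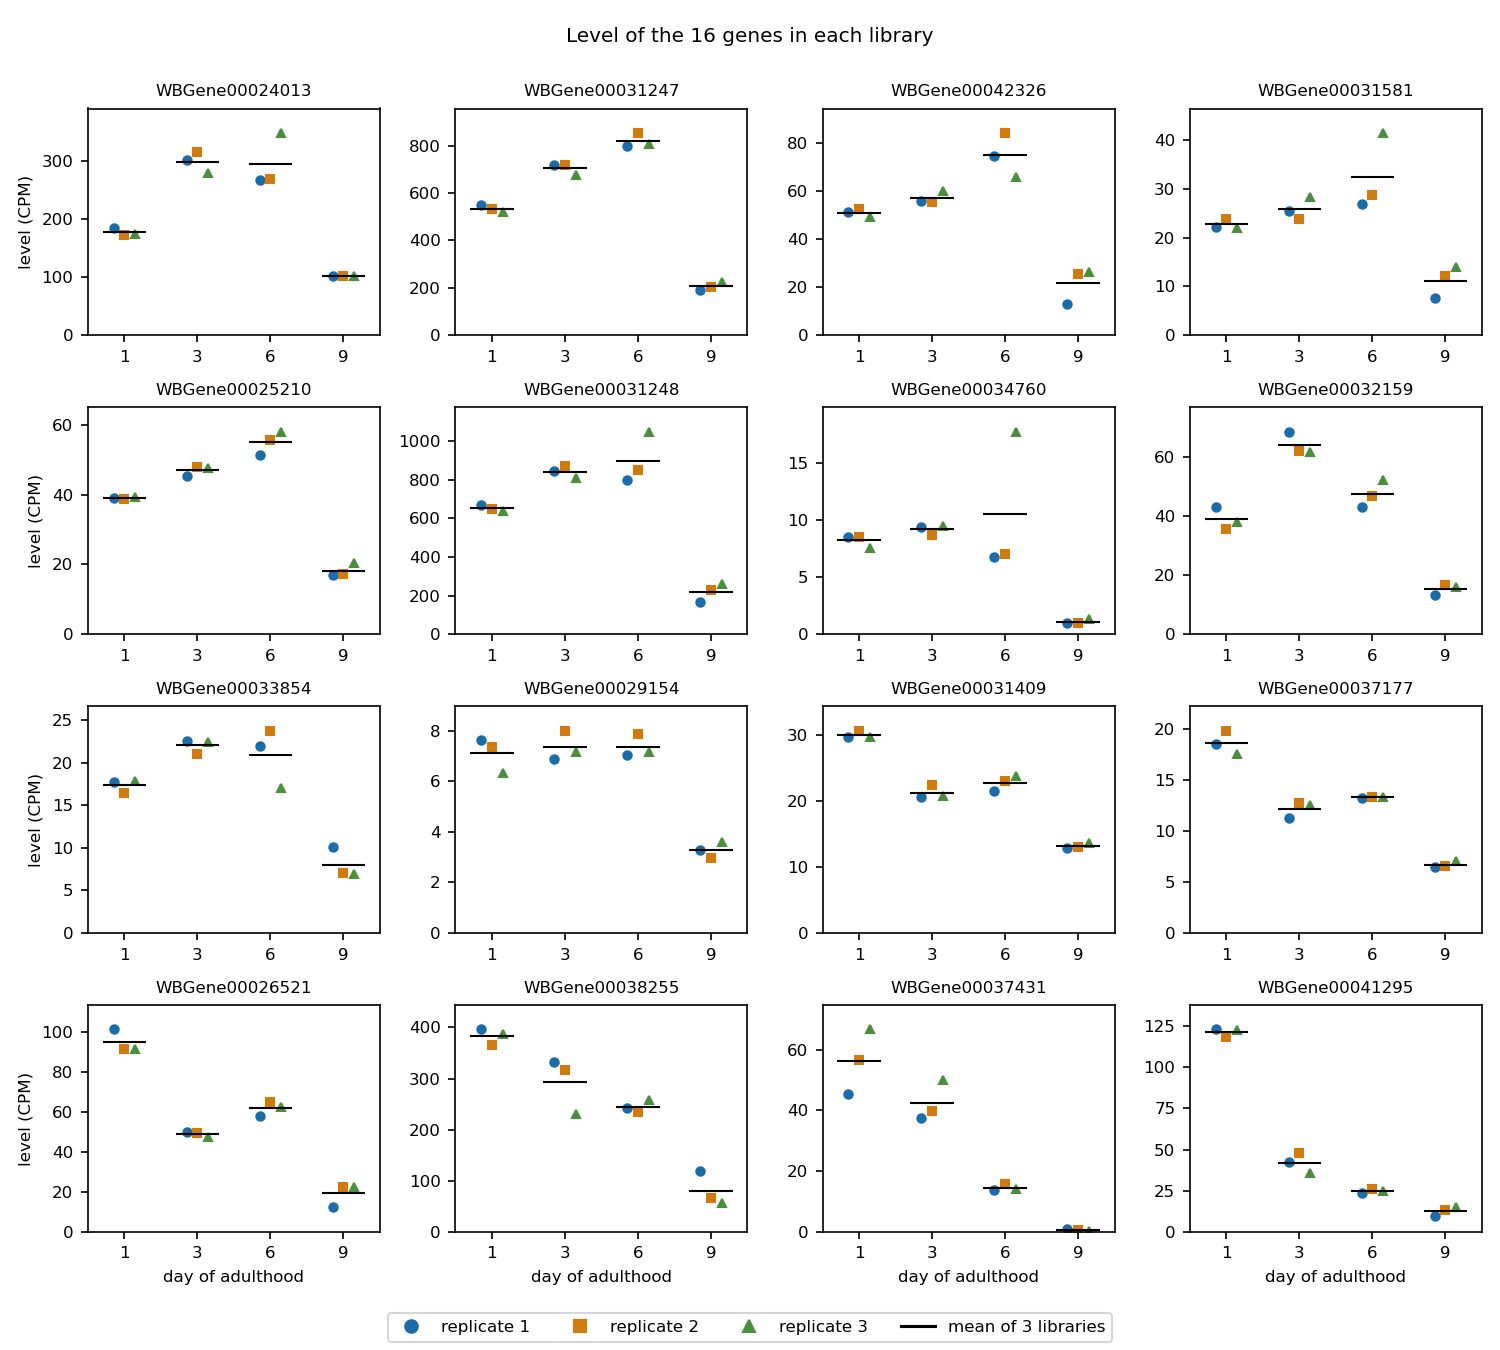
Level of each of the 16 genes in CPM (linear axes from 0, a scale of its own for each gene) against the day of adulthood, with 1 point per library, the replicate shown by colour and shape, and a line at the mean of 3 libraries. The genes are ordered by their change from day 1 to day 6, and in each panel all day 9 points lie below all earlier points, as the rule requires.

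The gap between the lowest earlier library and the highest day 9 library was small for most members. It was at least 2 for 6 of them and under 2 for 10, with a median of 1.89 and a range of 1.51 to 16.3. Just inside the limit were WBGene00031409, with a gap of 1.51 (20.7 against 13.7 CPM), and WBGene00041295, with 1.58 (23.7 against 15.0 CPM). Just outside were WBGene00035772, with 1.49 (44.9 against 30.2 CPM), and WBGene00271218, with 1.46 (8.99 against 6.16 CPM). Every day 9 library lay below every earlier library, by any margin, in 216 of the 7481 genes, or 2.89%. The lowest earlier library was one of day 1 for 9 members, of day 3 for 4 and of day 6 for 3, so the day nearest to day 9 was seldom the one that set the limit.

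The widest gap was that of WBGene00037431. Its level was 45.4, 56.5 and 66.6 CPM in replicates 1, 2 and 3 of day 1, then 37.4, 39.9 and 50.0 CPM at day 3, 13.7, 15.8 and 14.1 CPM at day 6, and 0.841, 0.690 and 0.116 CPM at day 9. The day 9 values rest on 12, 22 and 3 counts. They equal 5.79%, 4.75% and 0.800% of the day 6 mean, with exact 95% Poisson intervals, which cover counting error only, of 2.99% to 10.1%, 2.98% to 7.20% and 0.165% to 2.34%. Day 9 was low in each library, but the interval of replicate 3 lies below those of replicates 1 and 2, which overlap each other. The gene already stood lower at day 6 than at days 1 and 3.

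WBGene00034760 had the second widest gap, 5.16. It was measured at 8.54, 8.51 and 7.58 CPM at day 1, at 9.41, 8.65 and 9.46 CPM at day 3, and at 6.79, 7.05 and 17.7 CPM at day 6. At day 9 it was at 0.981, 1.00 and 1.32 CPM, or 14, 32 and 34 counts, which is 9.32%, 9.55% and 12.5% of the day 6 mean. The 3 day 9 libraries lay close together, and replicate 3 of day 6 stood far above the other 2 libraries of that day. Without that library the day 6 mean was 6.92 CPM, and the day 9 levels were 14.2%, 14.5% and 19.03% of it. All members other than WBGene00034760 and WBGene00037431 kept a larger part of their day 6 level, 24.3% to 57.9% as means over day 9.

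**Figure D2:**
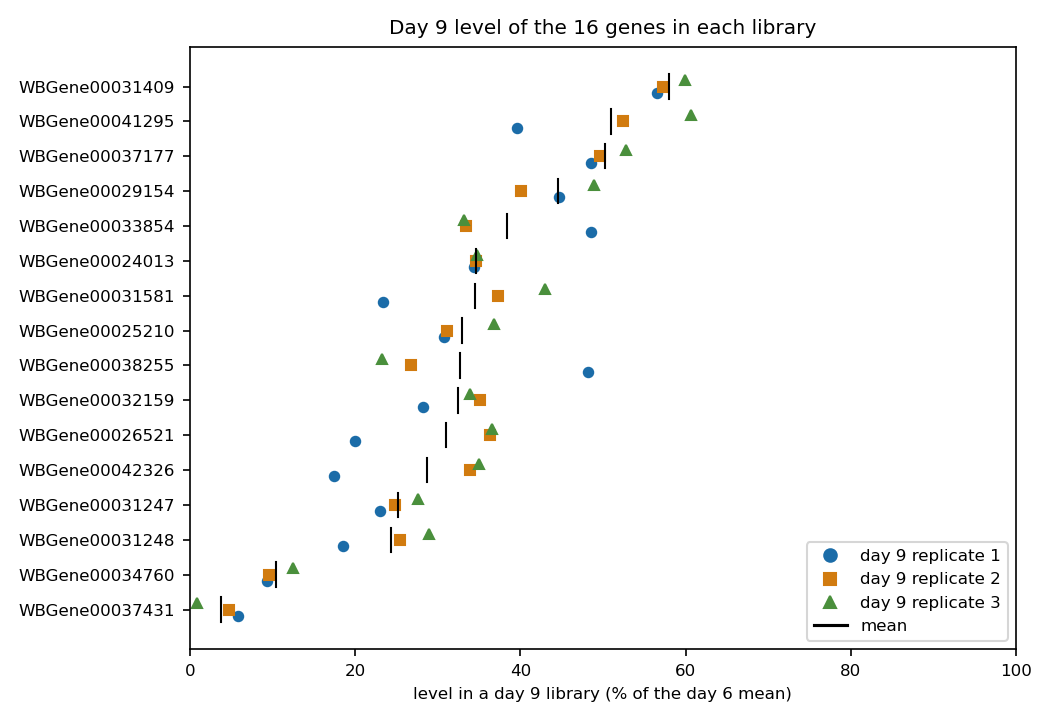
Level of each of the 16 genes in each day 9 library as a percent of the mean of the 3 day 6 libraries (linear axis), with 1 point per library and a line at the mean. WBGene00037431 and WBGene00034760 lie at 0.800% to 12.5%, and the other genes spread from 17.4% to 60.7%.

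The replicates of day 9 were also compared within each member, although the rule capped all 3 of them through the highest. Replicate 1 was within 2-fold of the mean of replicates 2 and 3 for 15 of 16 members (93.8%) and for 75.6% of the genes that met the level limits. It was the lowest of the 3 libraries in 12 members (75.0%), where 36.0% of those genes had it lowest, and the highest in 3 members (18.8%), against 59.1%. These shares are descriptions, since a gene with 1 high day 9 library could not become a member. WBGene00042326 was measured at 13.03, 25.4 and 26.2 CPM in the 3 day 9 libraries, the lowest ratio of replicate 1 to the others (log2 ratio -0.99). WBGene00026521 was at 12.4, 22.5 and 22.7 CPM (log2 ratio -0.86). The opposite order was seen in WBGene00038255, with 118, 65.7 and 57.0 CPM (log2 ratio 0.94). In WBGene00037431, described above, the log2 ratio was 1.06. The Poisson intervals of its replicates 1 and 2 overlapped, and its replicate 3 held just 3 counts. The day 9 values of WBGene00024013 were nearly equal, at 101.6, 102.3 and 102.5 CPM.

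**Figure D3:**
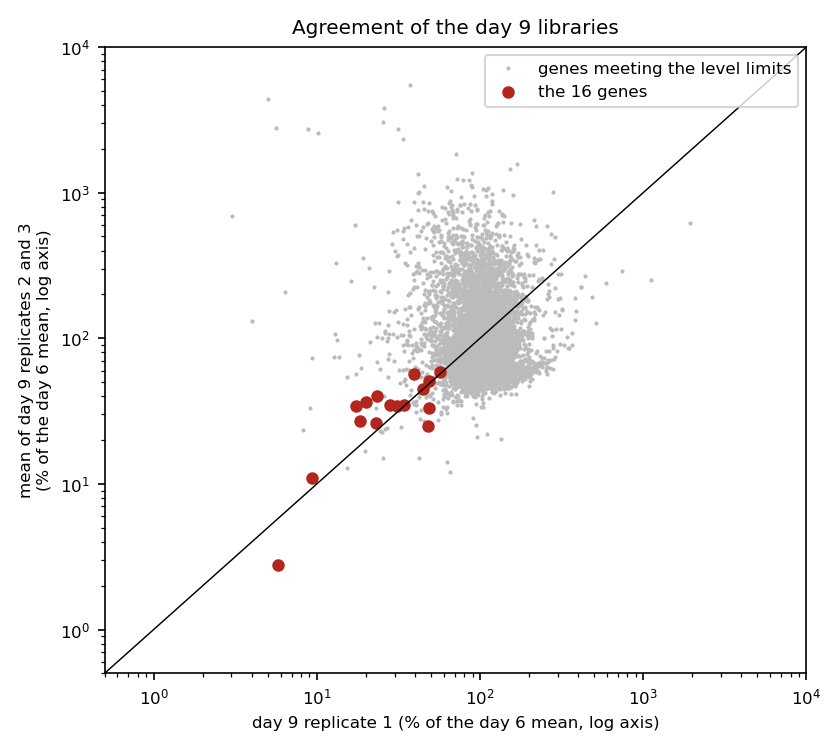
Level in day 9 replicate 1 (horizontal) against the mean of day 9 replicates 2 and 3 (vertical), both as a percent of the day 6 mean on log axes, for the 7481 genes that met the level limits (grey) and the 16 members (red). The black line marks equal values, and the members lie near it at the lower left, where few other genes lie.

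The order of days 1, 3 and 6 was not used by the rule and was therefore tested. The rule did use the lowest of these 9 libraries, so a low level at any of these days counted against membership. The size of the changes is thus not wholly free of the rule, and the genes within the level limits were not chosen by the gap. Changes between these days are log2 fold changes from edgeR, scaled by TMM factors, in a fit of the 9 libraries of days 1, 3 and 6 over 15409 genes, with p-values adjusted over all of them and a threshold of 0.05. Calls described as lost were lost at this threshold under another setting. All 16 members passed its filter on low counts, as their required level implies, and the fewest counts behind a member in these libraries were 160. The TMM scale matters to the direction of small changes. Between days 1 and 6 the median log2 fold change was -0.14 over all genes tested and 0.30 over those that met the level limits, a set from which genes that became very low at any of these days are missing. Counts of members called are therefore given beside both, while changes of single members are mostly given alone. From day 1 to day 6, 8 members lay above the median of genes within the level limits and 8 below it. From day 1 to day 3, 7 members lay above that median and 9 below.

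A difference among days 1, 3 and 6 was called for 14 of the 16 members (87.5%), against 79.8% of all genes tested and 85.6% of those that met the level limits. The share is near the background. From day 1 to day 6, 8 members rose, where 34.8% of all genes tested and 56.8% of those within the level limits were called higher. A fall was called for 6, against 41.5% and 24.0%. The difference between these shares was not tested, and rises and falls were both common among genes of the members' level. The members' own courses are described in turn.

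**Figure D4:**
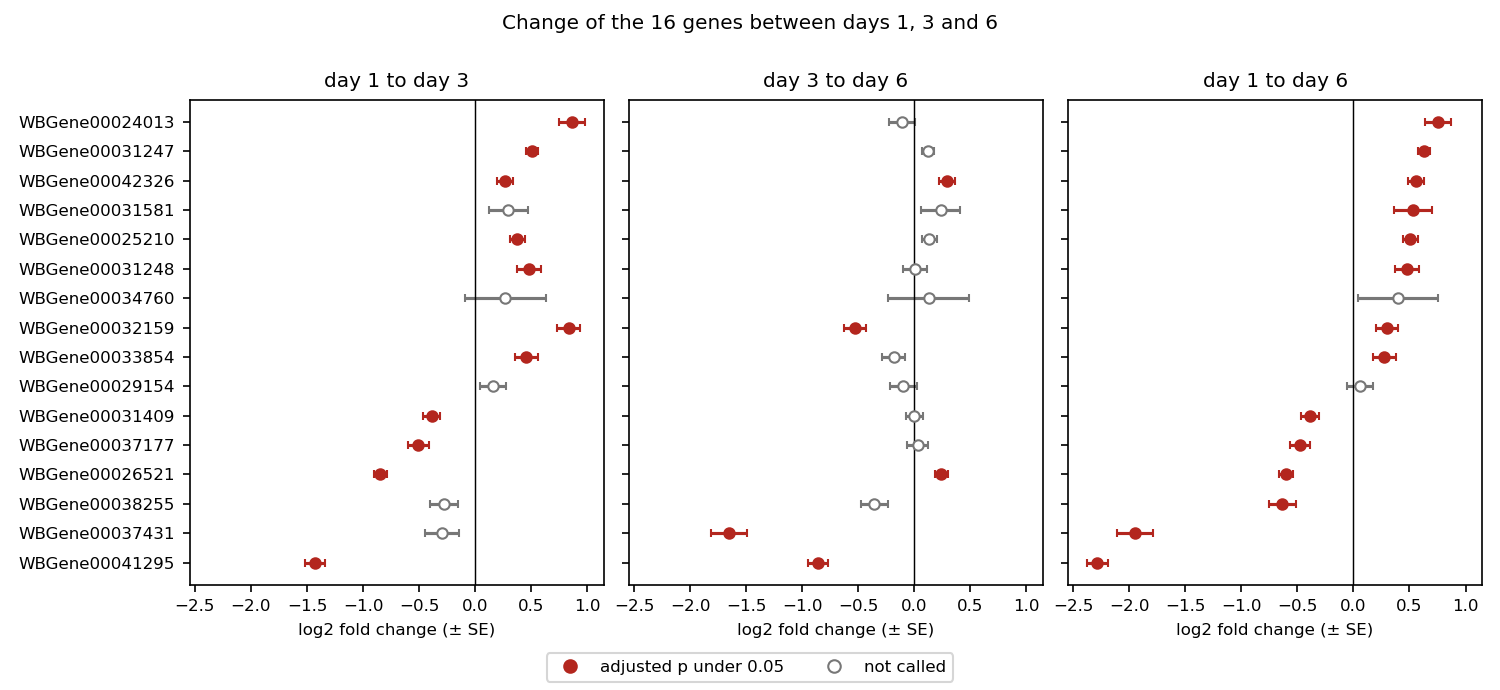
Log2 fold change of the 16 genes from day 1 to day 3, from day 3 to day 6 and from day 1 to day 6 (linear axes), with bars of 1 SE, from an edgeR fit of 9 libraries. Filled red points have an adjusted p under 0.05, and the genes are ordered by the change from day 1 to day 6, from 0.75 to -2.28. The 3 panels share libraries, so they are not independent of each other.

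Among the members that rose from day 1 to day 6, WBGene00024013 had the largest change. It stood at 184, 173 and 175 CPM at day 1, at 302, 315 and 279 CPM at day 3 and at 267, 269 and 348 CPM at day 6. Day 3 was higher than day 1 by 0.86 ± 0.12 on the log2 scale (SE, edgeR adjusted p = 0.000116), and day 6 higher than day 1 by 0.75 ± 0.12 (edgeR adjusted p = 0.000254). The libraries of day 1 lay below all of those of days 3 and 6. Its day 9 mean of 102.1 CPM was 57.6% of its day 1 mean.

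WBGene00031247 and WBGene00031248, which carried most counts among the members, followed a like course. WBGene00031247 was at 551, 532 and 521 CPM at day 1, 717.5, 716.9 and 677 CPM at day 3, 799.8, 854 and 807 CPM at day 6, and 189, 204 and 227 CPM at day 9. WBGene00031248 was at 670.4, 648 and 638 CPM at day 1, 843, 869 and 810.4 CPM at day 3, 799, 850.4 and 1049 CPM at day 6, and 166, 229 and 261 CPM at day 9. In both genes every library of days 3 and 6 lay above every library of day 1. WBGene00031247 rose by 0.63 ± 0.05 on the log2 scale from day 1 to day 6 (SE, edgeR adjusted p = 2.37e-06), and WBGene00031248 by 0.48 ± 0.11 (edgeR adjusted p = 0.00227), or by 0.32 without replicate 3 of day 6 (edgeR adjusted p = 0.000316). Their day 9 means were 38.6% and 33.5% of the day 1 means and 25.2% and 24.3% of the day 6 means. Their identifiers are consecutive, and whether they are similar copies between which reads could have been split is not given in the sources used here.

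WBGene00042326 and WBGene00025210 were highest at day 6. WBGene00042326 was at 51.4, 52.6 and 49.0 CPM at day 1, 55.8, 55.2 and 59.9 CPM at day 3, and 74.6, 84.2 and 66.0 CPM at day 6. It rose from day 1 to day 6 by 0.56 ± 0.07 on the log2 scale (SE, edgeR adjusted p = 4.72e-05), and each day lay above the one before without overlap. Its single steps were less firm. The call from day 1 to day 3 was lost with upper-quartile factors, the filter of 1 CPM in 6 libraries and all 12 libraries in the fit. The call from day 3 to day 6 was lost under 5 settings. WBGene00025210 was at 39.0, 38.8 and 39.3 CPM at day 1, 45.4, 47.9 and 47.6 CPM at day 3, 51.4, 55.7 and 58.0 CPM at day 6, and 16.95, 17.2 and 20.3 CPM at day 9. Its rise from day 1 to day 6 was 0.51 ± 0.07 (SE, edgeR adjusted p = 6.7e-05). The day 9 means of the 2 genes were 42.2% and 46.5% of their day 1 means.

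WBGene00032159 was highest at day 3. It was at 43.2, 35.6 and 38.0 CPM at day 1, 68.8, 62.2 and 61.7 CPM at day 3, 43.2, 47.0 and 52.3 CPM at day 6, and 13.4, 16.7 and 16.1 CPM at day 9. The day 3 libraries lay above all others. It rose by 0.83 ± 0.10 on the log2 scale from day 1 to day 3 (SE, edgeR adjusted p = 3.45e-05), and between days 3 and 6 it changed by a log2 fold of -0.53 ± 0.10 (edgeR adjusted p = 0.0065). The net change from day 1 to day 6, 0.30 ± 0.10 (edgeR adjusted p = 0.0185), lay at the median of genes within the level limits, and the call was lost with upper-quartile scaling and without replicate 2 or 3 of day 1 or replicate 3 of day 6.

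The other 2 members that rose from day 1 to day 6 were WBGene00033854 and WBGene00031581. WBGene00033854 was at 17.7, 16.4 and 17.8 CPM at day 1, 22.6, 21.0 and 22.5 CPM at day 3, 21.9, 23.8 and 17.02 CPM at day 6, and 10.2, 6.999 and 6.93 CPM at day 9. The libraries of days 1 and 6 overlapped, and its log2 fold change of 0.27 ± 0.10 (SE, edgeR adjusted p = 0.0333) lost its call under 9 of the other settings. That change lay just below the median of genes within the level limits (difference -0.022). The rise from day 1 to day 3 of 0.46 ± 0.10 (edgeR adjusted p = 0.0026) kept its call. WBGene00031581 was at 22.2, 23.8 and 22.1 CPM at day 1, 25.4, 23.7 and 28.3 CPM at day 3, 27.0, 28.6 and 41.4 CPM at day 6, and 7.56, 12.1 and 13.9 CPM at day 9. Replicate 3 of day 6 stood above the other libraries, and day 6 exceeded day 1 by 0.53 ± 0.17 on the log2 scale (SE, edgeR adjusted p = 0.0187), a call lost with upper-quartile scaling and without replicate 3 of day 1. Without replicate 3 of day 6 the change was 0.27 (edgeR adjusted p = 0.0182). Across the 8 members that rose from day 1 to day 6, the day 9 mean was 33.5% to 57.6% of the day 1 mean and 24.3% to 38.4% of the day 6 mean.

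The members lower at day 6 than at day 1 included those with the largest changes before day 9. WBGene00041295 stood at 123, 118.7 and 123 CPM at day 1, 42.5, 47.6 and 35.6 CPM at day 3, 23.7, 26.0 and 24.6 CPM at day 6, and 9.81, 12.99 and 15.0 CPM at day 9. No library overlapped with one of another day. Its log2 fold changes were -1.43 ± 0.09 (SE) from day 1 to day 3 (edgeR adjusted p = 5.94e-07) and -0.86 ± 0.09 from day 3 to day 6 (edgeR adjusted p = 0.000292). By day 9 its mean was 10.4% of the day 1 mean but 50.9% of the day 6 mean.

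WBGene00037431, whose levels are given above, fell from day 1 to day 6 with a log2 fold change of -1.94 ± 0.16 (SE, edgeR adjusted p = 4.74e-06). Most of this lay between days 3 and 6, at -1.65 ± 0.16 (edgeR adjusted p = 0.000317), and the step from day 1 to day 3 was -0.30 ± 0.15 (edgeR adjusted p = 0.112). This first step was called under 5 other settings, among them without replicate 1 of day 1 and without replicate 3 of day 3, with adjusted p-values of 0.0146 to 0.0341. The call between days 3 and 6 was lost when the day 9 libraries entered the fit (adjusted p = 0.0566). Its day 9 mean was 0.977% of its day 1 mean.

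WBGene00038255 was at 396, 366 and 388 CPM at day 1, 333, 317 and 230.2 CPM at day 3, and 242, 235 and 258 CPM at day 6. Neither single step was called, at -0.28 ± 0.12 (SE, edgeR adjusted p = 0.0698) from day 1 to day 3 and -0.36 ± 0.12 (edgeR adjusted p = 0.0724) from day 3 to day 6. The first step was called under 4 other settings, among them without replicate 1 of day 3, with adjusted p-values of 0.0159 to 0.0419, and the second without replicate 3 of day 3, at -0.50 (edgeR adjusted p = 0.00129). Over both steps it fell, with a log2 fold change of -0.63 ± 0.12 (edgeR adjusted p = 0.00117), a call lost when the day 9 libraries entered the fit. Replicate 3 of day 3 lay below the lowest day 6 library.

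In the other 3 members lower at day 6 the fall came between days 1 and 3. WBGene00026521 was at 101, 91.4 and 91.4 CPM at day 1, 49.7, 49.3 and 47.4 CPM at day 3, and 58.1, 64.9 and 62.6 CPM at day 6, and it was lower at day 3 by a log2 fold change of -0.84 ± 0.06 (SE, edgeR adjusted p = 1.39e-06). WBGene00037177 was at 18.5, 19.8 and 17.5 CPM at day 1, 11.2, 12.7 and 12.5 CPM at day 3, 13.2, 13.3 and 13.3 CPM at day 6, and 6.44, 6.59 and 7.01 CPM at day 9. Between days 1 and 3 it had a log2 fold change of -0.51 ± 0.09 (SE, edgeR adjusted p = 0.00064), and of -0.33 with all 12 libraries in the fit (edgeR adjusted p = 0.0453). Both fell by day 3 with no overlap between the libraries of days 1 and 3.

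WBGene00031409, the member nearest to the limit, was at 29.8, 30.7 and 29.7 CPM at day 1, 20.7, 22.5 and 20.7 CPM at day 3, 21.5, 23.0 and 23.8 CPM at day 6, and 12.9, 13.1 and 13.7 CPM at day 9. The step between days 1 and 3 had a log2 fold change of -0.39 ± 0.08 (SE, edgeR adjusted p = 0.00127), a call lost when the day 9 libraries entered the fit. No change was called between days 3 and 6, at 0.00 ± 0.08 (edgeR adjusted p = 0.994). Across the 6 members that fell from day 1 to day 6, the day 9 mean was 0.977% to 43.9% of the day 1 mean and 3.78% to 57.9% of the day 6 mean.

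The remaining 2 members were not called in any comparison of days 1, 3 and 6 in the fit of 9 libraries. WBGene00029154 was at 7.62, 7.37 and 6.33 CPM at day 1, 6.89, 8.01 and 7.16 CPM at day 3, 7.03, 7.88 and 7.16 CPM at day 6, and 3.29, 2.95 and 3.60 CPM at day 9. The libraries of days 1, 3 and 6 overlapped, and days 1 and 6 were set apart by a log2 fold change of 0.06 ± 0.12 (SE, edgeR adjusted p = 0.655). Its day 9 mean was 44.6% to 46.2% of the mean of each earlier day. WBGene00034760 had a log2 fold change from day 1 to day 6 of 0.40 ± 0.36 (SE, edgeR adjusted p = 0.335), which came from replicate 3 of day 6. Without that library it was -0.27 (edgeR adjusted p = 0.049), and -0.54 from day 3 to day 6 (edgeR adjusted p = 0.00552). Its step from day 1 to day 3 was called with just those days in the fit, at 0.28 (edgeR adjusted p = 0.0336).

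Taken by step, 7 members rose from day 1 to day 3, where 32.3% of all genes tested and 55.2% of those within the level limits were called higher, and 4 fell, against 37.5% and 23.4%. The median log2 fold change of the members was 0.27, that of all genes tested -0.14 and that of genes within the level limits 0.28. From day 3 to day 6, 2 members rose, against 7.59% and 8.89%, and 3 fell, against 11.7% and 11.8%. The risers were WBGene00042326, with a log2 fold change of 0.29 ± 0.07 (SE, edgeR adjusted p = 0.0205), and WBGene00026521, with 0.24 ± 0.06 (edgeR adjusted p = 0.0238). The members that fell were WBGene00037431, WBGene00041295 and WBGene00032159. Over all genes tested the step held 1170 rises and 1806 falls, and this balance turned with all 12 libraries in the fit (225 and 85), with the filter of 1 CPM in 6 libraries (1491 and 1264), with no filter (1364 and 1246) and with just the 2 days in the fit (1031 and 750). The median log2 fold change of this step was 0.00 for the members, -0.07 for all genes tested and -0.02 for genes within the level limits.

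Not all calls of the step from day 3 to day 6 were firm. One or both rises were lost without replicate 1, 2 or 3 of day 3 or replicate 1 or 2 of day 6, leaving 0 without replicate 2 of either day and 1 without the others. Without replicate 3 of day 6 the falls numbered 6 in place of 3, with WBGene00024013, WBGene00031248 and WBGene00034760 added. From day 1 to day 6, the rises numbered 5 in place of 8 without replicate 3 of day 1.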

How the data were processed

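Per the labels' protocols, libraries were prepared with a TruSeq kit from RNA isolated in Trizol. The authors deposited raw counts per gene, 1 column per library. STAR, featureCounts and MultiQC are named in the submitters' processing notes. No tool version, build, annotation or strandedness is given in the sources used here, so reads of overlapping or similar genes may have been split or dropped unseen. Libraries were assigned to days from their titles. The labels do not say that replicates came from separate cultures, and the p-values cover the spread between these samples alone, which may in part or whole be technical. No pair of libraries from a day differed by as little as sampling noise.

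The members and all lists and tests were chosen with earlier results of these data known. CPM values are counts over the column total. The 9 libraries of days 1, 3 and 6 were fitted with edgeR 4.0.16 in R 4.3.3 (filterByExpr, TMM, robust quasi-likelihood F tests, 1 mean per day, 6 residual degrees of freedom), leaving day 9, whose values the rule used, out of scale and spread. The Benjamini-Hochberg adjustment ran over 15409 genes. The SE is the log2 fold change divided by the square root of F. A run on simulated counts gave every gene the same spread and changed few genes, so it cannot vouch for the p-values here. Named were the 2 members with the widest gap, the most counts, the largest rise and fall per step without overlap, the extreme ratios of day 9 replicates and the least change, and 2 genes on each side of the limit. These were 12 members, and the other 4 were named after their values were seen. Marker and pathway lists were not used, as no identifier could be matched to a name. Alternatives were median-of-ratios and upper-quartile factors, other filters, limma-voom (limma 3.58.1), DESeq2 1.42.0, fits of all 12 libraries or just the pair of days, a replicate block, a stricter threshold of 0.01, each library left out, and other limits of the rule.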

Additional observations from a re-analysis of the deposited data

How the results depend on the processing

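The 16 members all met the rule under CPM with TMM factors (20 genes) or median-of-ratios factors (22 genes) of all 12 libraries. A lowest level of 1 CPM (22 genes), no upper limit (21 genes) and leaving out single libraries (16 to 36 genes) also loosen the rule. These settings could add genes but show nothing of the members' stability. A gap of at least 2 kept 6, a lowest level of 10 CPM kept 14, and day 9 replicate 1 alone, a setting added after seeing the data, gave 254. The median day 9 level, 32.8% of the day 6 mean, was 29.2% with TMM factors, 29.0% with median-of-ratios factors and 31.3% to 34.5% without single libraries. The day 6 mean without single libraries was also added after seeing the data. Of 30 calls of a member in a step, 25 had an adjusted p under 0.01, 21 held at 0.05 in all other alternatives run and 0 changed sign. Of 18 changes that were not called, 10 were called in some alternative, 7 with the same sign and 3 with the other. From day 3 to day 6 the rises numbered 0 with an adjusted p under 0.01 or with all 12 libraries, and 0 to 2 without single libraries, and the falls 3 to 6. From day 1 to day 6 the rises numbered 5 with an adjusted p under 0.01 or upper-quartile factors, and 5 to 8 without single libraries. Upper-quartile factors moved the all-gene median (log2) from -0.14 to -0.26 (day 1 to day 3) and -0.29 (day 1 to day 6), and all 12 libraries moved the former to 0.02. Over all genes, 4971 rises and 5783 falls from day 1 to day 3 became 4551 and 2972 with all 12 libraries. From day 1 to day 6, 5356 and 6394 became 4647 and 4271 with all 12 libraries and 4613 and 4198 with the filter of 1 CPM in 6 libraries.

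The same-numbered libraries deviated together at r of -0.01 to 0.16, over 0.1 in 4 of 9 pairs, among them all 3 pairs of replicate 1, while the 18 pairs with different numbers reached 0.078 at most. The labels name no shared culture or day, and not every pair passed 0.1, so the numbers were not taken to pair the libraries, which does not show that they are unpaired. With the replicate block the members numbered 7 higher and 5 lower from day 1 to day 3, 2 and 3 from day 3 to day 6, and 7 and 6 from day 1 to day 6. Not every library correlated best with its own number.

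Of the changes that were not called, 7 had the other sign in some setting; the cause was not tested. WBGene00029154 from day 1 to day 6 had a log2 fold change of -0.093 with upper-quartile factors, -0.011 with the filter of 1 CPM in 6 libraries, and -0.018 to 0.17 without single libraries. From day 3 to day 6, WBGene00031248 had -0.060 with all 12 libraries, -0.014 with limma-voom, -0.0071 with the replicate block, -0.036 with upper-quartile factors and -0.16 to 0.10 without single libraries. WBGene00031409 had -0.062 with all 12 libraries, -8.9e-06 with the block, -0.037 with upper-quartile factors and -0.066 to 0.055, and WBGene00037177 had -0.033 with all 12 libraries, -0.0080 with upper-quartile factors and -0.021 to 0.056. Without single libraries, WBGene00031581 ranged over -0.026 to 0.37, and WBGene00034760 over -0.54 to 0.38 from day 3 to day 6 and -0.27 to 0.65 from day 1 to day 6. Counts of 12, 22 and 3 limit the day 9 values of WBGene00037431.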
